A study of Mus musculus with 14 samples.

Results

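Neutrophil granule and surface genes were examined in RNA from microglia of the mouse dorsal lumbar spinal cord. The 10 genes, of 14329 in the deposited table, were S100a8, S100a9, Ngp, Camp, Lcn2, Mmp8, Mmp9, Retnlg, Ly6g and Cxcr2. They were taken by symbol and were chosen by their normalized counts in these libraries: R1, R2 and R9 held much of their RNA, while R10 held monocyte RNA and little S100a8. That contrast is therefore given as a description, with no test.

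The study asked how serum-induced arthritis acts on spinal microglia of 6-month-old WT and TASTPM mice. TASTPM mice are heterozygous transgenic mice on a C57BL/6 background that express human APP with the Swedish mutation, and their transgenes are driven in neurons by the murine Thy-1 promoter. Mice received serum transfer (ST) with arthritogenic K/BxN serum or with control serum, which gave 4 libraries each of WT K/BxN ST and TASTPM K/BxN ST and 3 each of WT Control ST and TASTPM Control ST. Each library came from 2000 sorted CD45low CD11b+ CX3CR1+ cells, a gate set for microglia that the study also describes as Ly6C- and CCR2-, and held between 14223015 and 20239175 reads on genes. Libraries are named by their column heads in the table: R1 to R4 are TASTPM K/BxN ST, R6 to R8 TASTPM Control ST, R9 to R12 WT K/BxN ST and R14 to R16 WT Control ST. Apart from R1 to R4, these numbers could not be joined to the replicate numbers of the sample labels. The 12 genes of the microglia list were abundant in every library, with 60030 to 79820 reads per 1000000 reads on genes (RPM) in 10 of them and less in R1 (21320), R2 (44780), R9 (33670) and R10 (50940).

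Neutrophils are short-lived granulocytes that are made in the bone marrow and enter tissue from blood. While they mature they fill successive granule types with antimicrobial proteins and proteases, so that transcripts of granule proteins are most abundant in marrow precursors, whereas Cxcr2 and Retnlg mark later stages. S100a8 and S100a9 are exceptions, since both are abundant throughout neutrophil life and are also made, at lower levels, by classical monocytes, which carry Ly6C and CCR2 and which a Ly6C- CCR2- gate would remove.

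The 10 genes lie at 10 annotated protein-coding loci. In GRCm39, S100a8 (chr3:90567118-90578128, + strand) and S100a9 (chr3:90599931-90603071, − strand) are neighbours. Camp (chr9:109676442-109678685, − strand), Ngp (chr9:110248815-110252086, + strand) and Mmp8 (chr9:7558457-7568487, + strand) share chromosome 9, and Lcn2 (chr2:32274645-32278264, − strand) and Mmp9 (chr2:164780439-164797771, + strand) share chromosome 2. Retnlg (chr16:48692547-48694862, + strand), Ly6g (chr15:75027089-75030982, + strand) and Cxcr2 (chr1:74193150-74200405, + strand) stand apart. Ly6g shared none of its 100-base windows with another annotated gene, although it belongs to a family with close relatives. Mmp8 shared 2.93% of such windows, and 263 of its exonic bases overlap Gm31751 on the opposite strand, so reads there cannot be assigned with certainty.

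The promoters of S100a8, Ngp and Mmp8 are shown because S100a8 was the gene that defined the comparison with R10. Among members with more than 3 reads in R10, Ngp had the highest and Mmp8 the lowest ratio to it. Each sequence is the 250 bases before the RefSeq start on the gene's strand, in GRCm38.p6, and capitals mark matches to a motif of C/EBP factors (TTGCNNAA), of PU.1 (AGGAAGT) or to a TATA box (TATAAA) on either strand. The windows are chr3:90668821-90669070 (+) for S100a8, chr9:110419558-110419807 (+) for Ngp and chr9:7558179-7558428 (+) for Mmp8.
S100a8: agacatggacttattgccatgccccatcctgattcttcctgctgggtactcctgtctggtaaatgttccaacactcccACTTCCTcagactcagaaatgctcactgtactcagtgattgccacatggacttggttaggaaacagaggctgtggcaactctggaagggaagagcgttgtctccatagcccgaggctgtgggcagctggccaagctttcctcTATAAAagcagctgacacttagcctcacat
Ngp: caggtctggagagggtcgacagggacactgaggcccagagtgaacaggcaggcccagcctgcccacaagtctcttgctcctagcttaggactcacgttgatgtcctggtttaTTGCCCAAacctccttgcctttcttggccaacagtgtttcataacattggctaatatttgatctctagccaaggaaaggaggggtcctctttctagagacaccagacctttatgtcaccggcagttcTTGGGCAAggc
Mmp8: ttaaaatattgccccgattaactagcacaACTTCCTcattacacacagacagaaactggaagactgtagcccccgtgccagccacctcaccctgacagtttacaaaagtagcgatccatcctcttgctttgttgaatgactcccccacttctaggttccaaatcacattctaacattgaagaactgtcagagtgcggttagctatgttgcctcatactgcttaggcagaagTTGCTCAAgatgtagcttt
C/EBP factors and PU.1 are transcription factors of the myeloid lineage. The C/EBP motif was found in 6 of the 9 members with a promoter in the reference table (S100a9, Ngp, Lcn2, Mmp8, Retnlg and Ly6g), beside 9.56% of 32851 promoters. The PU.1 motif was found in 3 (S100a8, Mmp8 and Ly6g), beside 7.69%, and the TATA box in 2 (S100a8 and Ly6g), beside 12.4%. Ngp carried 2 C/EBP matches, beginning 138 and 11 bases before the start, and the TATA box of S100a8 began 30 bases before it. These matches describe letters in the window and are not sites of binding.

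All 10 genes were highest in the same 3 libraries, R1 and R2 of TASTPM K/BxN ST and R9 of WT K/BxN ST. The genes were chosen by their counts in these libraries. Of the 14267 genes tested, 11.3% were higher in all 3 than in any of the 10 libraries other than R10. Together the 10 genes took 10770, 11210 and 12180 RPM in R1, R2 and R9. R10 held 219 RPM, and the remaining 10 libraries between 0.445 and 162, with a median of 7.24. The 3 libraries thus lay above the 11 others with no overlap. All 3 came from mice given K/BxN serum, and so did R3, R4, R11 and R12, where the sum was between 1.69 and 71.4. In bulk RNA, fewer cells of a type and less RNA in each cannot be told apart, and the CD45low CX3CR1+ gate was set for microglia, not for neutrophils or monocytes, so the cells that held these transcripts were not identified.

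**Figure D1:**
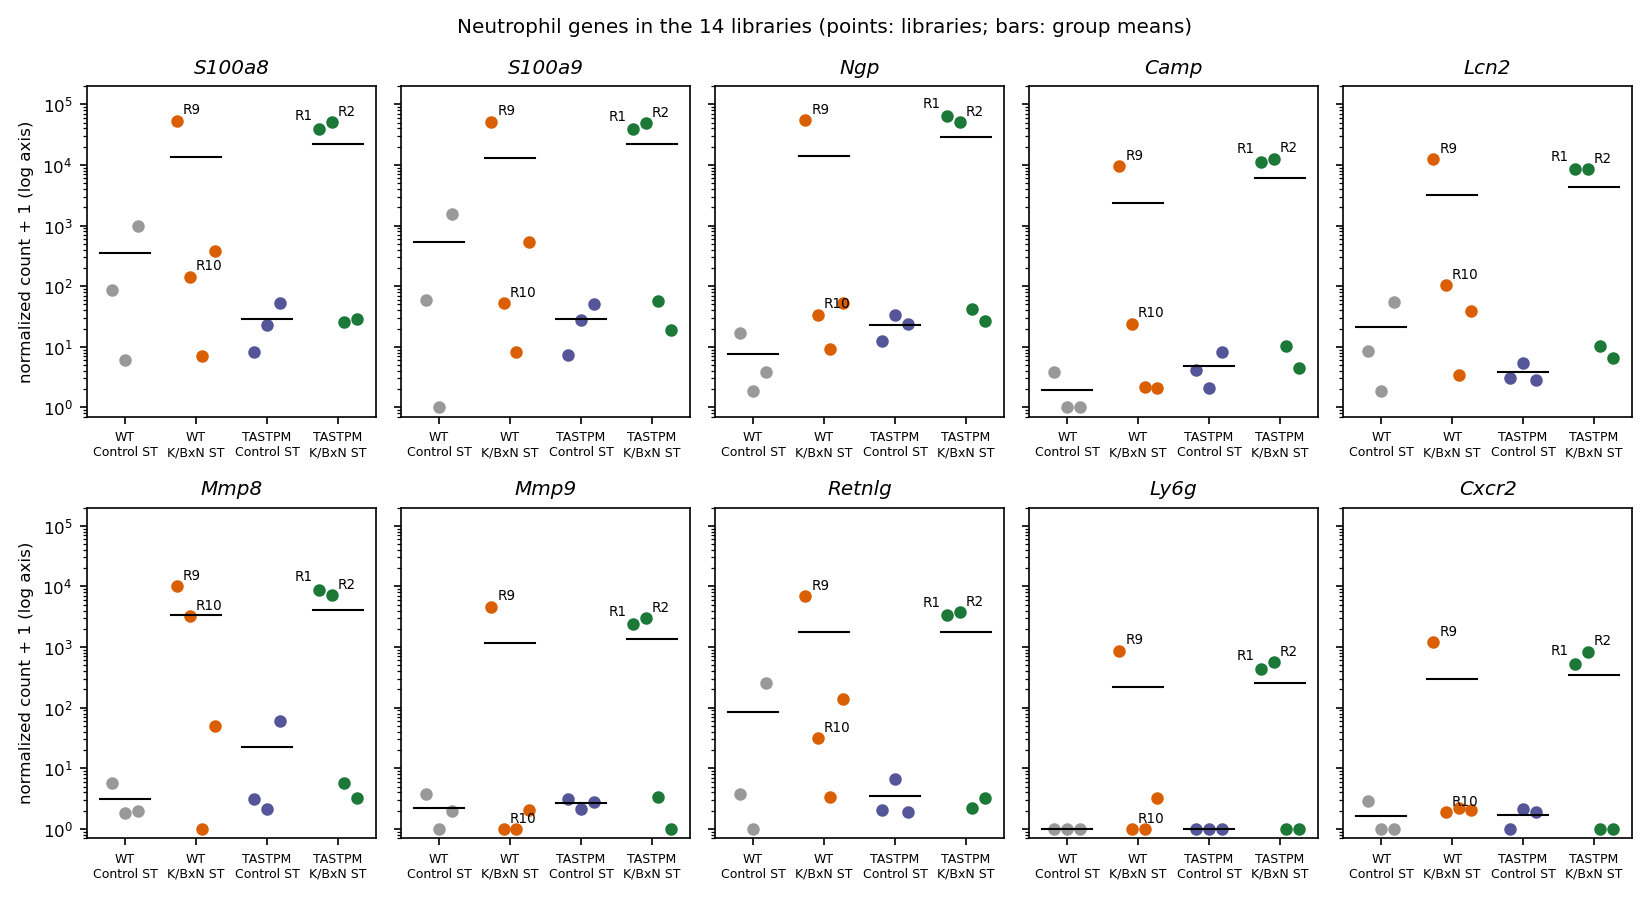
Normalized counts plus 1 (log axis) of the 10 genes in the 14 libraries, by group; each point is a library, each bar the group mean, and R1, R2, R9 and R10 are named. R1, R2 and R9 were the 3 highest libraries for every gene, and R10 came close to them for Mmp8 only.

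S100a8 and S100a9 encode the subunits of calprotectin, a calcium- and zinc-binding alarmin. In TASTPM K/BxN ST, S100a8 had normalized counts of 39500 in R1, 50150 in R2, 24.7 in R3 and 28.2 in R4. In TASTPM Control ST it had 7.31, 22.2 and 52.7. In WT K/BxN ST it had 53590 in R9, 143 in R10, 5.97 in R11 and 378 in R12, against 86.2, 5.03 and 969 in WT Control ST. The groups overlapped in both genotypes, since R3 and R4 in TASTPM and R10, R11 and R12 in WT lay within the range of their controls.
S100a9 had 38450 in R1, 48800 in R2, 55.2 in R3 and 18.1 in R4, against 6.27, 26.6 and 49.1 in TASTPM Control ST. In WT K/BxN ST it had 51730 in R9, 51.4 in R10, 7.17 in R11 and 528 in R12, against 57.2, 0 and 1525 in WT Control ST. It therefore followed S100a8, and the control library R16 was the highest of the 11 others for both genes. The pair kept nearly the same ratio in the 3 high libraries, with 102.7, 102.8 and 103.6 reads of S100a8 per 100 of S100a9 in R1, R2 and R9. R10 had 277.6 and R16 had 63.56.

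Ngp, Camp, Lcn2, Mmp8 and Mmp9 encode granule proteins: the neutrophilic granule protein, the antimicrobial cathelicidin, the siderophore-binding lipocalin 2, the neutrophil collagenase and the gelatinase B. Ngp had normalized counts of 63730 in R1, 50470 in R2, 41.1 in R3 and 25.9 in R4, against 11.5, 32.2 and 22.7 in TASTPM Control ST. In WT K/BxN ST it had 55010 in R9, 32.8 in R10, 8.36 in R11 and 51.2 in R12, against 15.9, 0.838 and 2.86 in WT Control ST. In contrast to S100a8, it was nearly absent from R16. Camp had 11320, 12730 and 9439 in R1, R2 and R9, 23.0 in R10 and at most 9.40 in the 10 others. Lcn2 had 8568, 8606 and 12420, with 103 in R10 and at most 53.5 elsewhere, in R16. Mmp9 had 2353, 2997 and 4636, and no other library held more than 3 reads of it.
Mmp8 was the exception among the granule genes. It had normalized counts of 8832 in R1, 7277 in R2, 4.70 in R3 and 2.26 in R4, against 2.09, 1.11 and 60.0 in TASTPM Control ST. In WT K/BxN ST it had 9973 in R9, 3245 in R10, 0 in R11 and 48.0 in R12, against 4.69, 0.838 and 0.955 in WT Control ST. R10 thus joined R1, R2 and R9 for this gene, more than 50-fold above the highest of the 10 others.

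Retnlg encodes a secreted resistin-like protein. It had normalized counts of 3346, 3796 and 6907 in R1, R2 and R9, 30.1 in R10, 138 in R12 and 252 in R16, and at most 5.55 elsewhere. The surface genes were the least abundant. Ly6g, the antigen by which mouse neutrophils are commonly gated, had 440, 567 and 868, and 0 reads in 10 of the 11 other libraries. Cxcr2, a receptor for neutrophil-attracting chemokines, had 533, 839 and 1198, and at most 3 reads in each of the 11 others. For Mmp9, Ly6g and Cxcr2, 3 reads were taken as the limit of detection, so levels below it were not detectable at this depth.

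Levels between genes were compared per exonic length. In RPM per kilobase, Ngp had 2830 in R1, 2219 in R2 and 2378 in R9, S100a8 had 2438, 3064 and 3220, and S100a9 had 1832, 2302 and 2399. Among 14268 genes ranked by this measure, Ngp was number 6, 13 and 8, and S100a8 number 8, 6 and 4, in R1, R2 and R9. Camp followed with 788, 878 and 640. Lcn2, Mmp8 and Retnlg lay between 180 and 378, Mmp9 between 38.6 and 74.1, Ly6g between 27.8 and 53.3 and Cxcr2 between 10.7 and 23.3. S100a8, S100a9, Ngp and Camp thus stood among the 51 most abundant transcripts of these 3 libraries, whereas Cxcr2 had ranks of 3209, 2067 and 1567.

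The 3 high libraries did not hold the 10 genes in one fixed ratio. Relative to R1, R9 had 2.25 times the normalized count of Cxcr2 (95% counting interval 2.03 to 2.49), 2.06 times that of Retnlg (1.98 to 2.15) and 1.97 times those of Ly6g and Mmp9. S100a8 and S100a9 were 1.36 and 1.35 times as high. Ngp and Camp, by contrast, were lower in R9, at 0.863 (0.853 to 0.873) and 0.834 (0.812 to 0.857) of R1. The surface genes and Retnlg thus ranked above the granule genes Ngp and Camp in R9 relative to R1. The granule genes did not move together, since Lcn2 was 1.45 times and Mmp8 1.13 times as high in R9 as in R1. In R2 relative to R1, Ngp was at 0.792, Camp at 1.125, Retnlg at 1.134 and Cxcr2 at 1.573. The intervals cover counting error only, and each library is a single sample.

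Monocyte and neutrophil RNA came apart in R10, which had monocyte genes high and most of the 10 genes low. The 13 genes of the monocyte list took 41010 RPM in R1, 18920 in R2, 37750 in R9 and 30590 in R10, and 523 to 1412 in the 10 others. Ly6c2, the monocyte form of Ly6C, had normalized counts of 29130, 15650 and 23510 in R1, R2 and R9, 12900 in R10 and at most 17.8 elsewhere. The sequence of Ly6c2 shares 18.7% of its 100-base windows with other genes, mainly Ly6c1. Lyz2, the myeloid lysozyme that microglia also express, had 536200, 258100, 516800 and 431000, against at most 22930. The summed list of R10, most of which is Lyz2, thus lay within the range of R1, R2 and R9, while Ly6c2 was below all 3. R10 held 0.715 reads of the 10 genes per 100 reads of the monocyte list, whereas R1, R2 and R9 held 26.3, 59.2 and 32.3. The ratio alone does not set these libraries apart, since R16 held 31.0 and R12 12.7 with hardly any Ly6c2, and the 8 others held 0.0608 to 1.21 with at most 11.99 RPM on the 10 genes.

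**Figure D2:**
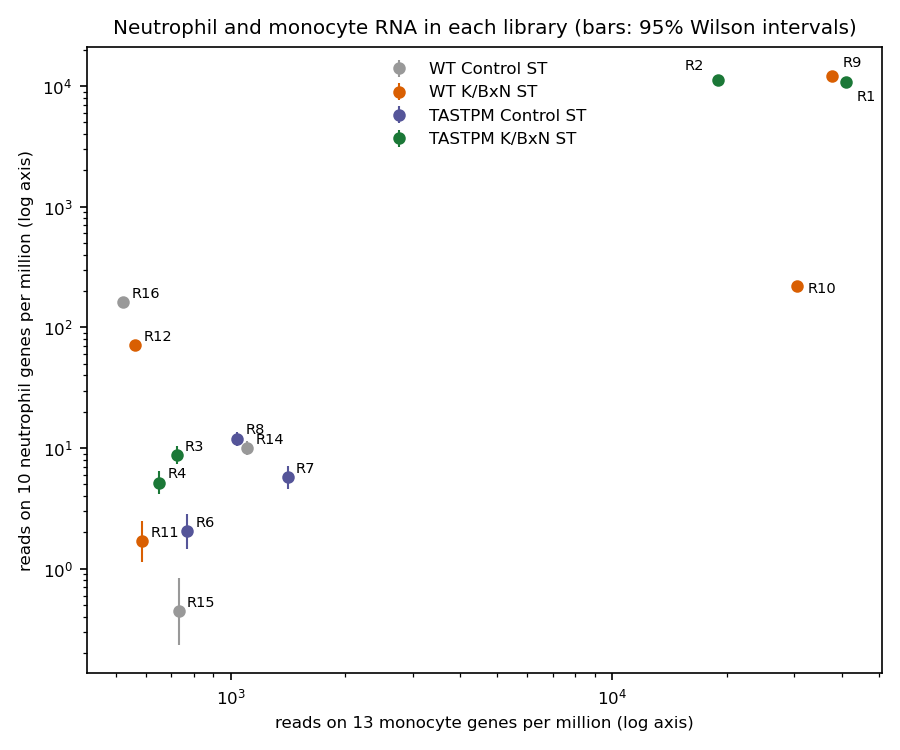
Reads on the 10 neutrophil genes against reads on 13 monocyte genes, both in RPM (log axes), with 95% Wilson intervals for the neutrophil genes; each point is a library. R1, R2 and R9 lie at the upper right, and R10 lies at the same monocyte level with 219 RPM of neutrophil reads.

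The gap between R10 and the 3 libraries differed from gene to gene. Ngp was 1540 to 1945 times higher in R1, R2 and R9 than in R10, S100a9 749 to 1007 times, Camp 410 to 553 times, S100a8 277 to 376 times, Retnlg 111 to 229 times and Lcn2 83.4 to 121 times. Mmp9 and Ly6g had no read in R10, and against a floor of 3 reads they were at least 886-fold and at least 166-fold higher in each of the 3. Cxcr2 had 1 read in R10 and was 602-fold higher in R1 (exact counting interval 108 to 23840). Mmp8 was only 2.24 to 3.07 times higher. As a result Mmp8 made up 89.4% of the reads on the 10 genes in R10 (95% Wilson interval 88.5 to 90.3), against 4.99%, 3.91% and 4.85% in R1, R2 and R9. Without Mmp8, the 9 other genes took 23.1 RPM in R10.

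**Figure D3:**
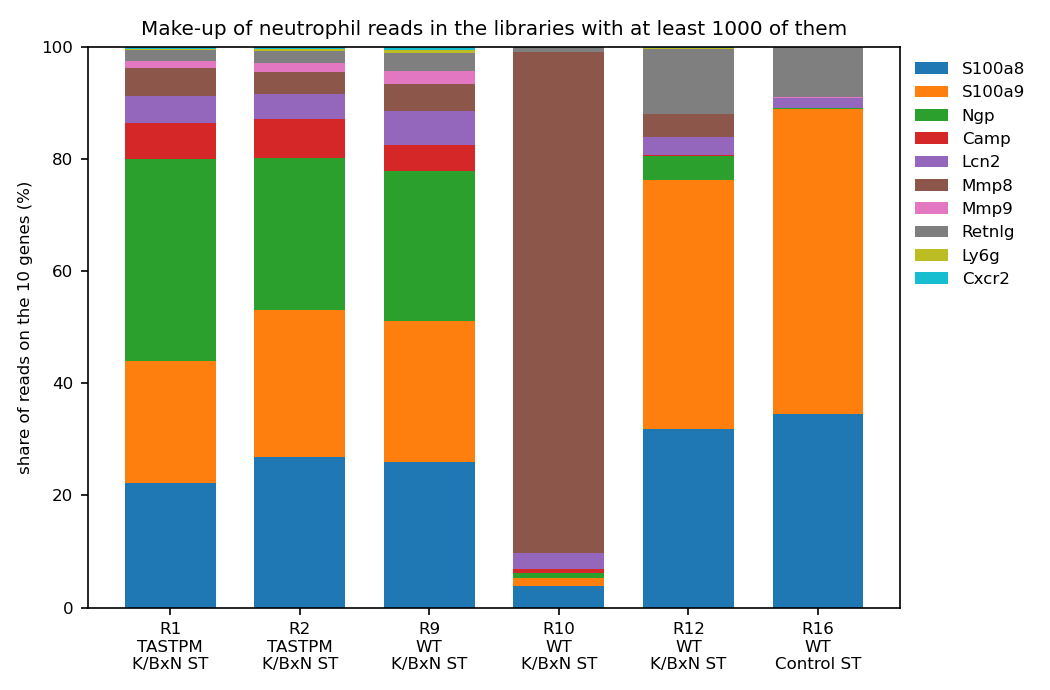
Share of each gene in the reads on the 10 neutrophil genes (%), in the 6 libraries with at least 1000 such reads. Ngp, S100a8 and S100a9 fill most of R1, R2 and R9, Mmp8 fills 89.4% of R10, and S100a8, S100a9 and Retnlg fill most of R12 and R16.

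A different mixture appeared in R12 and R16, the libraries next in order. In R16, a WT Control ST library, S100a8 took 34.6% of the 2937 reads on the 10 genes, S100a9 54.4% and Retnlg 8.99%, whereas Ngp took 0.102% and Camp, Ly6g and Cxcr2 had no read. R12, a WT K/BxN ST library, had 31.9%, 44.4% and 11.7% for the same 3 genes and 4.32% for Ngp, of 1089 reads. In R1, R2 and R9 Ngp took 36.0%, 27.1% and 26.7% and Retnlg at most 3.36%. R16 also stood apart for the 5 genes of the red cell list, with 2420 RPM against 30.9 to 276 in every other library. Their part in the S100a8 and S100a9 levels of R16 was not tested. The monocyte list had 523 RPM in R16 and 561 in R12, the lowest of all libraries, and most of it is Lyz2. Ly6c2 had 1.91 normalized counts in R16, but Ccr2 had 86.0 there, the highest of the 10 libraries other than R1, R2, R9 and R10. The part of monocyte RNA in these levels was not tested.

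Neutrophil genes outside the 10 split in R10 as well. Of 23 such genes listed, 12 are in the table, and 9 of the 12 were higher in R1, R2 and R9 than in any of the 10 libraries other than R10, beside 11.3% of the 14267 genes tested. Ltf, which encodes lactoferrin of the same granules as Ngp and Lcn2, had normalized counts of 25010, 18110 and 24350 in R1, R2 and R9 and 1 read in R10. Cebpe, a transcription factor of granule genes named here after its values were seen, had 156 to 358 in R1, R2 and R9 and no read in any other library. Cd177, a neutrophil surface protein that binds proteinase 3, behaved otherwise, with 9943, 4487 and 10720 in R1, R2 and R9 and 3892 in R10. Pglyrp1, a peptidoglycan-binding granule protein, had 2541, 2541 and 2470, and 543 in R10. Csf3r, the receptor for granulocyte colony-stimulating factor, had 3684 to 10520 in all 14 libraries and was no higher in R1, R2 and R9 than in the rest. Of 6 primary granule genes listed, only Prtn3, proteinase 3, is in the table, with 5867, 4817 and 1322, and 562 in R10.
Genes that neutrophils and monocytes share were present in R10. All 15 on the list were higher in R1, R2 and R9 than in the 10 other libraries, beside 11.3% of the 14267 genes tested. In R10 14 of the 15 were so too, beside 1932 of the 14267. Their median fold of the mean of R1, R2 and R9 over R10 was 2.97, with a range of 1.49 to 12.5. Chil3, a chitinase-like protein, had 53700, 69030 and 48350 in R1, R2 and R9 and 25630 in R10, and Hp, haptoglobin, had 25010, 12650 and 17950, and 9395. The same median was 410 for the 10 genes, with the 2 genes that had no read at their bound, or 329 with Cxcr2 also set to 3 reads. It was 16.6 for the 12 other neutrophil genes, 1.37 for the 13 monocyte genes and 1.06 for all 14267 genes tested. Of the 12 other neutrophil genes, 5 had a fold under 5 and 4 a fold of 50 or more, beside 13604 and 36 of the 14267. Mmp8 (2.68) thus lay in the range of the shared list and the 9 other genes lay above it. Cd177 (2.15), Pglyrp1 (4.64) and Prtn3 (7.13) also lay in that range, as did Padi4 (2.02) and Lrg1 (12.3), both named after their values were seen.
Some markers of other cells were high in the same libraries and others were not. The 5 border macrophage genes took 88.2, 68.1, 174 and 91.2 RPM in R1, R2, R9 and R10 and at most 53.4 elsewhere, and the 4 dendritic cell genes took 467, 46.2, 269 and 94.1 and at most 13.4 elsewhere. These sums did not hold for every gene: Lyve1 had 476 normalized counts in R7 and Mrc1 599 in R3, above R1, R2 and R10, and Zbtb46 had 4.43 in R10 and up to 223 elsewhere, in R3. Of the 2 lymphocyte genes Cd79b, which makes up most of the list, was no higher in R1, R2 and R9 than elsewhere, whereas Cd79a had 244, 214 and 127 in R1, R2 and R9, 21.3 in R10 and at most 44.9 in the 10 others. Their part in the levels of the 10 genes was not tested.

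**Figure D4:**
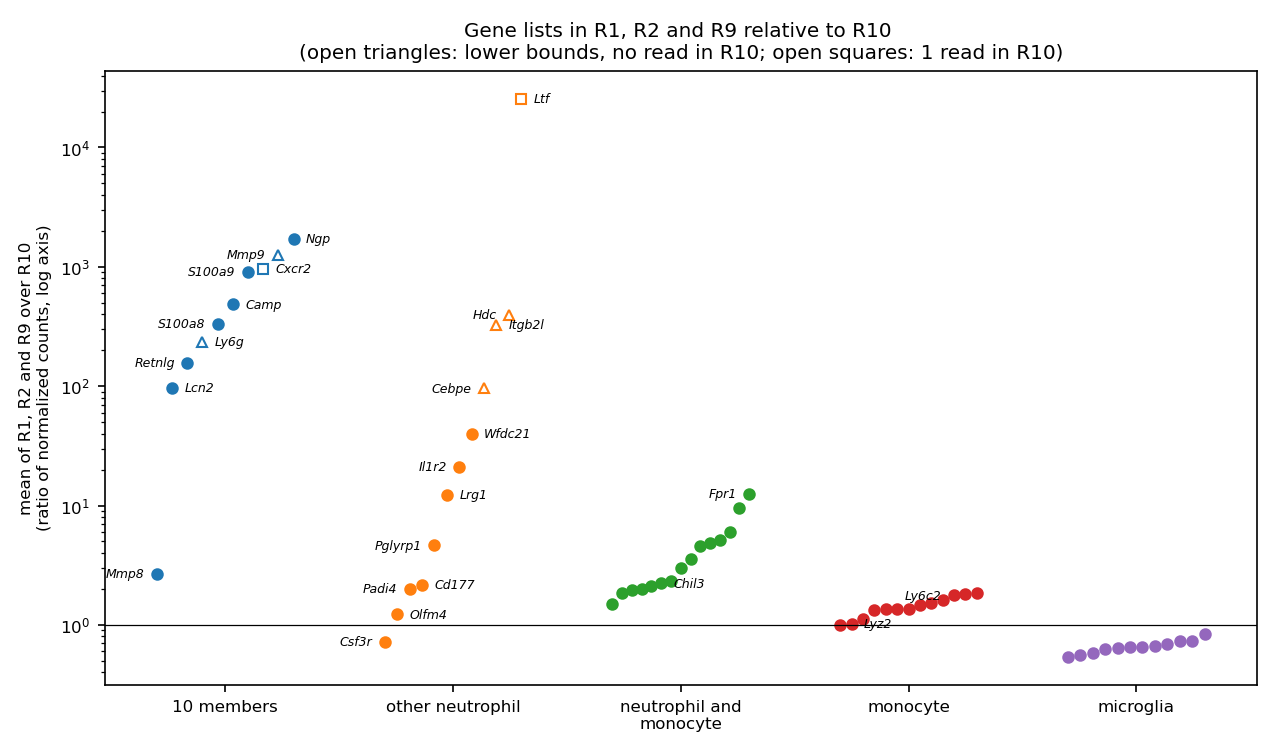
Ratio of the mean normalized count in R1, R2 and R9 to that in R10 (log axis) for the genes of 5 lists; filled circles are ratios, open triangles lower bounds for genes with no read in R10 and open squares genes with 1 read there. Mmp8 is the lowest of the 10 genes at 2.68, while monocyte genes lie between 0.993 and 1.85.

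By the mean absolute difference of centred log2 profiles over the 14 libraries, the genes outside the 10 whose pattern was most like their mean were Hdc (0.92), Wfdc21 (0.94), Fcnb (1.03), Pglyrp1 (1.06) and Itgb2l (1.09). Among the 10 themselves Lcn2 was nearest (0.52) and Mmp8 farthest (1.43), at rank 52 of the genes. Hdc, histidine decarboxylase, had 1273, 927 and 966 normalized counts in R1, R2 and R9 and at most 1.17 elsewhere. Fcnb, a ficolin of myeloid cells, had 1517, 2817 and 1163, and 69.1 in R10.

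The design compares K/BxN ST with Control ST in each genotype, and for these genes no difference passed limma's test in either. Since the genes were chosen for high counts in R1, R2 and R9, which are all K/BxN ST libraries, positive fold changes and calls restate that choice, and the shares of all genes are printed beside them with nothing read from the difference. With limma on log2(normalized count + 1) and Benjamini-Hochberg adjustment over 14267 genes, 0 of the 10 genes were called at an adjusted p below 0.05 in WT, where 0.00701% of all genes tested were called, and 0 of 10 in TASTPM, where 0% were. The 1 gene called in WT was Rarg, a retinoic acid receptor outside the 10, named after its value was seen. At an unadjusted p below 0.05 the counts were 0 of 10 in WT, beside 7.22% of all genes, and 1 of 10 in TASTPM, beside 4.28%. That gene was Lcn2, with a log2 fold change of 6.21 (SE 2.78, limma unadjusted p = 0.0414, adjusted p = 0.945). The quasi-likelihood test of edgeR, run on whole reads, called 0 of 10 in both, beside 0% of all genes. DESeq2 called 5 of 10 in WT (Ngp, Camp, Lcn2, Mmp8 and Ly6g), beside 1.92%, and 7 of 10 in TASTPM (S100a8, S100a9, Ngp, Camp, Lcn2, Retnlg and Ly6g), beside 0.617%. Without R1, R2 and R9, by which the genes were chosen, DESeq2 called 0 of the 10 in either genotype, beside 0.435% of all genes in WT and 0.231% in TASTPM. Leaving them out largely fixed this count, since Mmp9, Ly6g and Cxcr2 had at most 3 reads in each of the 11 other libraries. R10, also used in the choice, stayed in, and nothing is read from the count.
All 10 log2 fold changes were positive in both genotypes, with medians of 3.11 in WT and 5.35 in TASTPM, beside 0.0896 and 0.0236 for all genes tested, a direction that the choice of the genes fixed. In WT the highest library was R9 for each gene, and in TASTPM it was R1 or R2. In both K/BxN ST groups the SD exceeded the mean for each of the 10 genes: S100a8 was 13530 ± 26710 (SD, n = 4) in WT K/BxN ST against 354 ± 535 (SD, n = 3) in WT Control ST, and 22420 ± 26230 (SD, n = 4) against 27.4 ± 23.1 (SD, n = 3) in TASTPM. Limma gave S100a8 a log2 fold change of 2.24 (SE 3.03, adjusted p = 0.858) in WT and 5.66 (SE 3.03, adjusted p = 0.945) in TASTPM. Without R9 the WT value of S100a8 was −0.14 and that of Mmp9 −0.61. Monocyte list genes moved with the same libraries, and their part in these fold changes was not tested.
For no gene did every WT K/BxN ST library exceed every WT Control ST library, beside 3.76% of genes tested. In TASTPM this held for Lcn2 only, where R4 had 5.64 and the highest control 4.44, beside 2.61%. In two-sided exact permutation tests over 35 splits of 7 libraries, which cannot go below p = 0.0286, the smallest of 20 p values was 0.0571, for Lcn2 in TASTPM (Benjamini-Hochberg 0.508, above every control in 4 of 4 libraries). The methods count 3 to 4 mice in each group, so the libraries were taken as separate mice.

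**Figure D5:**
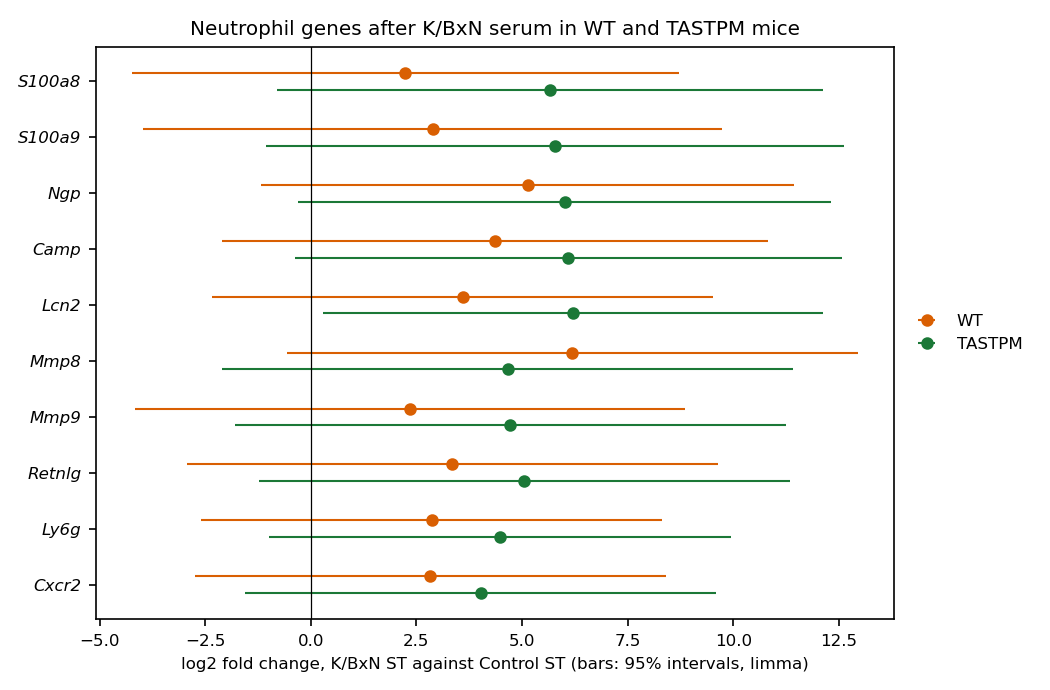
Log2 fold changes of K/BxN ST against Control ST for the 10 genes in WT and TASTPM, with 95% intervals from limma. All 20 values lie above 0, and only the interval of Lcn2 in TASTPM, from 0.28 to 12.1, leaves 0 out.

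No difference between genotypes in the response to serum passed the test. The interaction had log2 values from −1.53 (Mmp8) to 3.42 (S100a8), each with an SE above 3.6, and limma called 0 of 10 at an adjusted p of 0.999, beside 0% of all genes. edgeR called 0 of 10, beside 0%, DESeq2 0 of 10, beside 0.252%, and 0 of 10 had an unadjusted p below 0.05 in limma, beside 3.04%. The interval for S100a8 ran from −5.72 to 12.6. TASTPM against WT gave 0 of 10 calls by limma under K/BxN ST and 0 of 10 under Control ST, beside 0% of all genes in both. edgeR called 0 of 10 in both, beside 0%, and DESeq2 0 of 10 in both, beside 0% under K/BxN ST and 0.589% under Control ST. At an unadjusted p below 0.05 limma had 0 of 10 in both, beside 2.03% under K/BxN ST and 5.34% under Control ST. Under K/BxN ST the difference for S100a8 was 1.55 (SE 2.81) on the log2 scale and that for Retnlg −0.04 (SE 2.73).

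Several partners of these proteins were detected in all 14 libraries, and others were not. S100a8 and S100a9 act on the receptor Tlr4, which had 2509, 2816 and 2555 normalized counts in R1, R2 and R9. Tlr4 had 3706 in R10 and 3850 to 8350 in the 10 others. The microglia list was also lowest in R1, R2 and R9. Lcn2 acts on Slc22a17, which had 252 to 840 normalized counts in all libraries. Timp2, an inhibitor of Mmp8 and Mmp9, had 6870 to 19730. By contrast, Cd36 of the receptor list had a count of 0 in R3 and R4. Timp4 of the inhibitor list had 0 in R2, R3, R6, R8 and R10. Spi1, which encodes PU.1, had 5949 to 10670, and Cebpb 796 to 8068, highest in R1. In both serum comparisons limma and edgeR called none of the 4 receptor genes tested, of the 2 inhibitors or of the 5 transcription factors. Of all genes, these tools called at most 0.00701%. DESeq2 called 1 of the 5 transcription factors in each genotype, beside 1.92% of all genes in WT and 0.617% in TASTPM, and none of the others. It was Cebpe in both, which had reads in R1, R2 and R9 alone. The chemokine ligands of Cxcr2 were not analysed here.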

How the data were processed

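RNA-seq of sorted dorsal horn microglia was analysed in 14 libraries. According to the methods and the submitters' processing notes, cDNA was amplified from total RNA, reads were checked with FastQC 0.11.9, aligned with HISAT2 2.1 to GRCm39, counted per gene with featureCounts 1.5.2, and normalized with DESeq2. The values deposited by the authors are a normalized signal, that is, the reads of a gene divided by 1 factor per library. Whole reads were recovered for 100% of values (tolerance 0.001 reads). Of 14336 entries, 7 repeats were dropped. Although the stated filter asked for 10 reads in 50% of samples, 1684 genes fall below it. Each column was assigned to a group by the heading above it, since only R1 to R4 matched a sample label.

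Normalized counts, given to 4 significant digits, were tested as log2(value + 1) with limma 3.58.1 (trend, 1 fit to 4 groups, R 4.3.3) for 14267 genes with at least 10 reads in 3 libraries. Calls needed an adjusted p below 0.05 and an absolute log2 fold change above 1. All 10 neutrophil genes passed this filter, but only 3 of them pass 10 reads in 7 libraries. A gene can pass through its high group alone, so its passing supports nothing. On the recovered reads, edgeR 4.0.16 called 0 genes in WT and 0 in TASTPM, and DESeq2 1.42.0 called 274 and 88. Other alternatives changed the pseudocount, filter, scaling, variance model and libraries. Wilson 95% intervals and floors of 3 reads cover counting error only, since reads carried no molecular identifiers.

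The 10 genes, the comparison with R10 and the marker lists were chosen with earlier results of these data known. Genes named beyond the 10 are the 4 most abundant of each list, the 5 most alike in pattern, and those said to be named after their values were seen. Positions and exonic lengths are from GENCODE M39, and promoters from RefSeq. In both serum comparisons limma called 0 of 5 border macrophage, 0 of 4 dendritic cell and 0 of 2 lymphocyte genes. Of all genes, limma called 0.00701% in WT and 0% in TASTPM. DESeq2 called 1 of the 4 dendritic cell genes (Cd209a) in each genotype and none of the others, beside 1.92% of all genes in WT and 0.617% in TASTPM. Protein sequences were not used here.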

Additional observations from a re-analysis of the deposited data

Results flagged for a closer look

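Within WT K/BxN ST, R9 lay far above the 3 other libraries for 9 of the 10 genes and for their sum, with a gap to the next library that filled nearly the whole range of the group. R9 and R10 are libraries by which the genes were chosen, so this restates the choice and is given as values, with no test. The normalized counts of R9 were 53590 for S100a8, 51730 for S100a9, 55010 for Ngp, 9439 for Camp, 12420 for Lcn2, 4636 for Mmp9, 6907 for Retnlg, 868 for Ly6g and 1198 for Cxcr2, and the 10 genes took 12180 RPM. For Mmp8, R10 lay between R9 and the rest. In TASTPM K/BxN ST, R1 and R2 were both high and no single library stood apart.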

How the results depend on the processing

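No paired analysis was possible because the labels give no replicate number to 10 of the 14 libraries in the table, and groups share none. The number of the 10 genes called stayed at 0 in all 5 comparisons under every alternative except DESeq2, which called 5 in WT and 7 in TASTPM. Genes called by limma in WT, 1 in all, became 0 with a pseudocount of 4, with robust variances, with the groups compared alone and with edgeR, and 274 with DESeq2. Omitting single libraries gave 0 to 17, with 17 without R16, 12 without R15 and 6 without R3, and in TASTPM, 0 in all, gave 0 to 1, against 88 with DESeq2. Alternatives chosen after seeing the data left out libraries. Without R1, R2 and R9, or without R10 as well, limma called 0 genes in WT, and DESeq2 without R1, R2 and R9 called 62 in WT and 33 in TASTPM. In WT, the log2 fold change of S100a8 became −0.14 without R9 or without R1, R2 and R9, and −0.64 without R10 as well, and that of Mmp9 −0.61, −0.61 and −0.43, and omitting single libraries gave −0.14 to 4.16 and −0.61 to 3.45. In TASTPM without R1, R2 and R9 it became −0.77 for Mmp8, −0.53 for Mmp9, −0.15 for Retnlg, −0.67 for Cxcr2 and, without R10 as well, 0 for Ly6g. The lowest of R1, R2 and R9 held 49.3 times the share of R10, 25.4 times without S100a8 and S100a9, 258 times as a mean of logs and, added after seeing the data, 443 times without Mmp8. Without S100a8 and S100a9, Mmp8 took 94.5% in R10 and Ngp 64.3% in R1. The cause of these changes was not tested, beyond the fewer genes or samples each uses. Levels of 3 reads or fewer could not be told from 0.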
